A study of Bos taurus with 12 samples.

Results

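The basement membrane is the thin sheet of matrix on which epithelium rests and which surrounds blood vessels, smooth muscle and fat cells. Its scaffold consists of a laminin network and a type IV collagen network. Both are linked by nidogens and by the heparan sulphate proteoglycan perlecan, while the collagens XV and XVIII lie where the sheet meets the fibrous stroma. In the endometrium such sheets underlie the luminal and glandular epithelium and enclose the capillaries, and they are remodelled over the estrous cycle.

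The genes were listed by name, with earlier results of these data known, and matched to the array by their symbol in the platform annotation. Of 10 basement membrane genes listed, 9 were measured, by 17 of the 24016 probe sets tested. These were COL4A1 (2 probe sets), COL15A1 (2), COL18A1 (1), LAMA4 (2), LAMB1 (1), LAMC1 (6), NID1 (1), NID2 (1) and HSPG2 (1). COL4A2, the usual partner chain of COL4A1 and its direct neighbour in the genome, carried no probe set under this symbol and was not analysed here. A probe set is a group of short oligonucleotides on the array that report on one transcript, and each gene is described by the probe set with its highest mean signal, with its other probe sets beside it.

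The arrays were hybridised with pooled RNA from endometrium of Simmental heifers. According to the labels, 12 pools formed 4 groups of 3, namely receptive endometrium of day 7 and of day 3 and non-receptive endometrium of day 7 and of day 3 of the estrous cycle. The series describes the tissue as taken before the transfer of embryos produced in vivo and grouped by whether pregnancy followed. No age, treatment or number of animals per pool is given in the labels used here. As nothing in them says that the pools of a group came from separate animals, p-values measure the spread between pools, which may in part be technical. Signals are on the log2 scale, so that a difference of 1 is a doubling, and levels of different genes are not set against each other because probe sets differ in brightness. Fold changes and p-values came from a linear model over all arrays (limma), with Benjamini-Hochberg adjustment over all probe sets and a call at an adjusted p under 0.05.

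Array medians lay between 6.64 and 6.76 and pools of the same group correlated at 0.952 to 0.971 across probe sets. Epithelial markers (11 genes measured, such as KRT18 and CDH1) had a mean signal between 10.68 and 11.06 in all pools. Of the 9 measured markers of endometrium SERPINA14, a major uterine secretory protein, was listed at 0 in 2 pools of day 3 and no other marker in any pool. The actin control probe sets at the 3' and the 5' end, whose difference grows as RNA shortens, were apart by 0.82 to 3.11 in receptive and 0.02 to 0.93 in non-receptive pools, and 0.02 to 1.25 on day 7 and 0.48 to 3.11 on day 3. The part of RNA length in the results was not tested.

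The contrast of day 7 with day 3 asked how the basement membrane genes differ between both days of the cycle. COL4A1, COL15A1, LAMA4, NID1 and HSPG2 were lower on day 7 in the average over both receptivity groups, with changes between -2.07 and -0.81 log2 units. LAMB1, LAMC1, NID2 and COL18A1 did not pass, with changes between -0.35 and 0.02. Thus 5 of 9 genes were called lower and 0 higher, where 14.2% of all probe sets were called in either direction and 9.44% lower (10.3% of 9155 named genes), and 30.8% had an unadjusted p under 0.05. As the list was not drawn up independently of these data, this count is a description. The median change of the 9 genes was -0.81, beside -0.05 over all probe sets. In bulk tissue fewer cells of a type and less RNA per cell cannot be told apart.

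**Figure D1:**
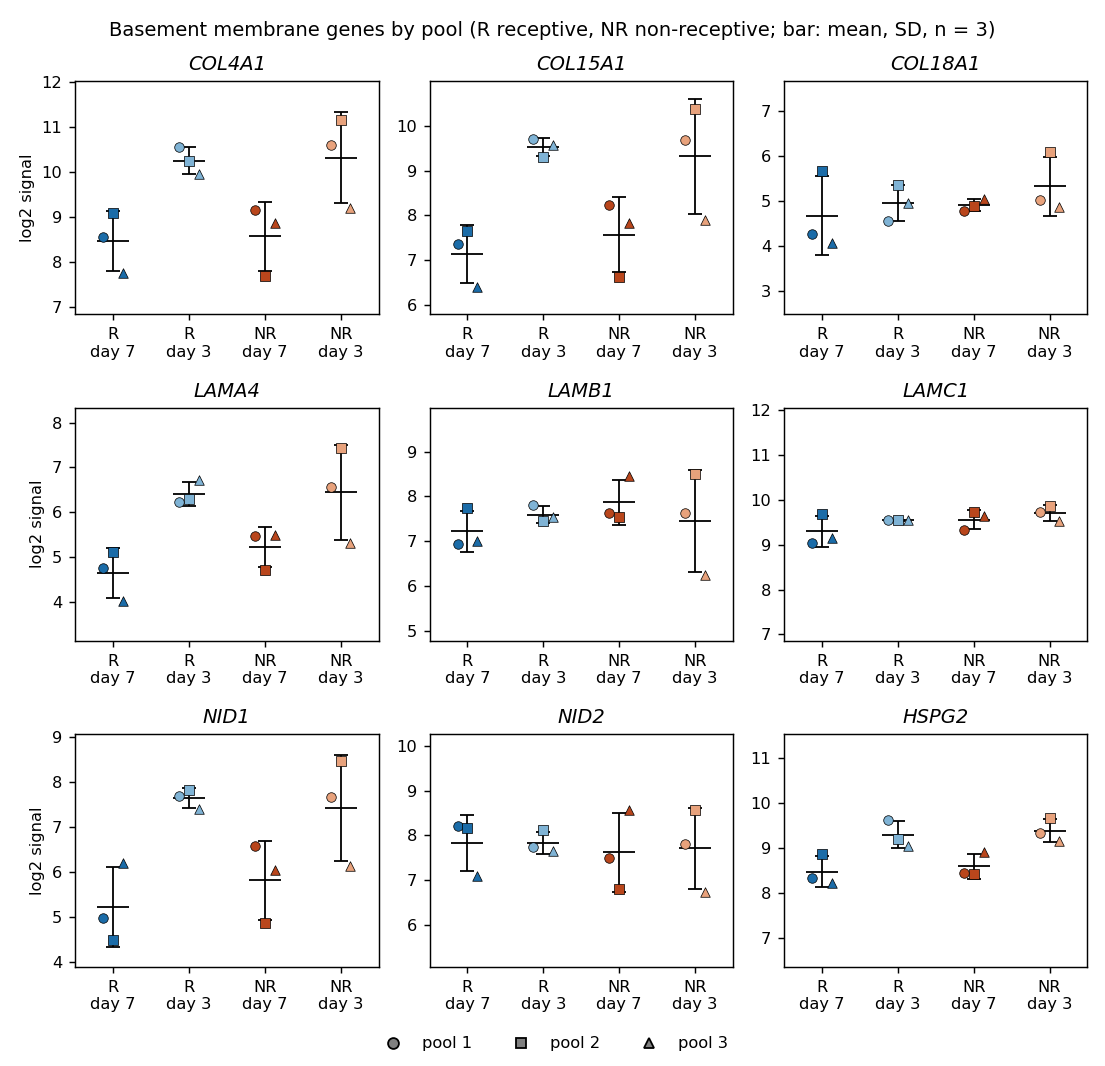
Log2 signal (y axis, each panel spanning the same range of log2 units) of the 9 measured genes for the 3 pools of every group. Points are pools, the x axis gives receptivity and day, and bars mark mean and SD. COL4A1 (8.51 on day 7 against 10.28 on day 3), COL15A1, LAMA4, NID1 and HSPG2 lie lower on day 7, while LAMB1 (7.55 against 7.53), NID2, LAMC1 and COL18A1 overlap widely.

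COL4A1 encodes the most common chain of type IV collagen, the network-forming collagen of nearly all basement membranes. Its signal was 8.54, 9.09 and 7.75 in receptive day 7 pools, against 10.55, 10.24 and 9.95 in receptive day 3 pools. In non-receptive endometrium it was 9.15, 7.69 and 8.86 on day 7, against 10.60, 11.16 and 9.19 on day 3. Every pool of day 7 thus lay below every pool of day 3, though the highest of day 7 (9.15) and the lowest of day 3 (9.19) almost met. No overlap in this direction was seen for 5.16% of all probe sets. COL4A1 averaged 8.51 ± 0.65 on day 7 and 10.28 ± 0.67 on day 3 (SD, n = 6 each), a log2 change of -1.77 ± 0.39 (SE, limma adjusted p = 0.0168), or 3.41-fold lower on day 7. The dimmer probe set of COL4A1 was separated as well, with 5.79 ± 0.51 on day 7 and 7.27 ± 0.46 on day 3 (-1.48 ± 0.29 SE, limma adjusted p = 0.0105).

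COL15A1 and COL18A1 encode the multiplexins, a pair of related collagens with interrupted triple helices and heparan or chondroitin sulphate chains, whose released ends restin and endostatin are known to restrain the growth of vessels. COL15A1 had 7.37, 7.65 and 6.41 in receptive day 7 pools, against 9.71, 9.30 and 9.57 in receptive day 3 pools. The non-receptive pools had 8.23, 6.63 and 7.84 on day 7, against 9.68, 10.38 and 7.89 on day 3. In receptive endometrium no pool of day 7 was above 7.65 and none of day 3 below 9.30, whereas in non-receptive endometrium pool 3 of day 3 lay below pool 1 of day 7. The averaged change was -2.07 ± 0.44 (SE, n = 6 pools each day, limma adjusted p = 0.015), the largest of the 9 genes, and its other probe set changed by -1.65 ± 0.35 (limma adjusted p = 0.0143). By that dimmer probe set the days did not overlap in either receptivity group. Its change was -1.57 in receptive and -1.73 in non-receptive endometrium, so the overlap in non-receptive pools held for the brighter probe set only.

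COL18A1 was dim, at the 25.8th percentile of mean signal. It had 4.27, 5.68 and 4.06 in receptive day 7 pools, against 4.56, 5.35 and 4.95 in receptive day 3 pools, and 4.78, 4.90 and 5.05 in non-receptive day 7 pools, against 5.02, 6.09 and 4.88 in non-receptive day 3 pools. The days overlapped in both receptivity groups. Its change of -0.35 had a 95% interval from -1.05 to 0.34 (limma adjusted p = 0.488), which covers a fall to below the level of day 3 by 1 log2 unit.

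The laminin genes behaved unequally. A laminin is a cross of one alpha, one beta and one gamma chain, and the alpha 4 chain encoded by LAMA4, which is typical of vessel walls, smooth muscle and fat, assembles with the beta 1 (LAMB1) and gamma 1 (LAMC1) chains. LAMB1 and LAMC1 also serve laminins with other alpha chains, including those below epithelium. LAMA4 signals were 4.77, 5.12 and 4.03 in receptive day 7 pools, against 6.22, 6.30 and 6.72 in receptive day 3 pools. Non-receptive pools had 5.47, 4.71 and 5.49 on day 7, against 6.57, 7.44 and 5.32 on day 3, where pool 3 of day 3 was within the range of day 7. LAMA4 averaged 4.93 ± 0.55 on day 7 and 6.43 ± 0.70 on day 3 (SD, n = 6 each), a change of -1.50 ± 0.34 (SE, limma adjusted p = 0.0202), and this call was lost without non-receptive day 3 pool 1 (adjusted p = 0.0526) or receptive day 3 pool 3 (adjusted p = 0.0501). The other LAMA4 probe set was near the lower end of the scale, with a mean of 2.71, and gave -0.29 ± 0.24 (limma adjusted p = 0.464). The mean of both LAMA4 probe sets changed by -0.89 (limma adjusted p = 0.0134).

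LAMB1, the partner chain, did not pass. It had 6.93, 7.75 and 7.00 in receptive day 7 pools, against 7.80, 7.45 and 7.54 in receptive day 3 pools, and 7.64, 7.53 and 8.45 in non-receptive day 7 pools, against 7.62, 8.51 and 6.25 in non-receptive day 3 pools. The change of 0.02 had a 95% interval from -0.76 to 0.81 (limma adjusted p = 0.975), and its sign depended on single pools. Without non-receptive day 3 pool 3, the lowest of the 12, it was -0.28 (adjusted p = 0.493).

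LAMC1 had the narrowest spread of the 9 genes on day 3 (SD of 0.14 over 6 pools). Its signals were 9.04, 9.69 and 9.15 in receptive day 7 pools, against 9.54, 9.54 and 9.56 in receptive day 3 pools, and 9.32, 9.72 and 9.63 in non-receptive day 7 pools, against 9.72, 9.87 and 9.52 in non-receptive day 3 pools. A change of -0.20 ± 0.13 (SE, 95% interval from -0.48 to 0.08, limma adjusted p = 0.324) did not pass. Of the 5 other LAMC1 probe sets, all of them dimmer, none passed either, and they disagreed in sign, with changes between -0.48 (limma adjusted p = 0.0685) and 0.30.

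Nidogens bind laminin and type IV collagen at the same time and so join both networks, and NID1 and NID2 can in part stand in for each other in the mouse. NID1 had 4.97, 4.47 and 6.20 in receptive day 7 pools, against 7.69, 7.83 and 7.40 in receptive day 3 pools. In non-receptive endometrium the values were 6.57, 4.85 and 6.03 on day 7, against 7.67, 8.47 and 6.14 on day 3. Again pool 3 of non-receptive day 3 stood low, below 2 pools of day 7. NID1 averaged 5.52 ± 0.86 on day 7 and 7.53 ± 0.77 on day 3 (SD, n = 6 each), a change of -2.02 ± 0.45 (SE, limma adjusted p = 0.0187), or 4.05-fold lower on day 7.

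The second nidogen gene, NID2, did not pass. It had 8.21, 8.17 and 7.10 in receptive day 7 pools, against 7.74, 8.12 and 7.66 in receptive day 3 pools, and 7.49, 6.81 and 8.57 in non-receptive day 7 pools, against 7.82, 8.56 and 6.75 in non-receptive day 3 pools. The ranges of both days were nearly the same. The change of -0.05 had a 95% interval from -0.89 to 0.79 (limma adjusted p = 0.947) and took the other sign after median centring of the arrays (0.01).

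HSPG2 encodes perlecan, which carries heparan sulphate and holds growth factors in the basement membrane. It had 8.33, 8.87 and 8.22 in receptive day 7 pools, against 9.64, 9.21 and 9.05 in receptive day 3 pools, and 8.45, 8.43 and 8.91 in non-receptive day 7 pools, against 9.33, 9.67 and 9.17 in non-receptive day 3 pools. All 6 pools of day 7 lay below all 6 of day 3. The change was the smallest of the 5 genes called and had the smallest standard error among them, at -0.81 ± 0.16 (SE, limma adjusted p = 0.0124), or 1.75-fold lower on day 7.

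**Figure D2:**
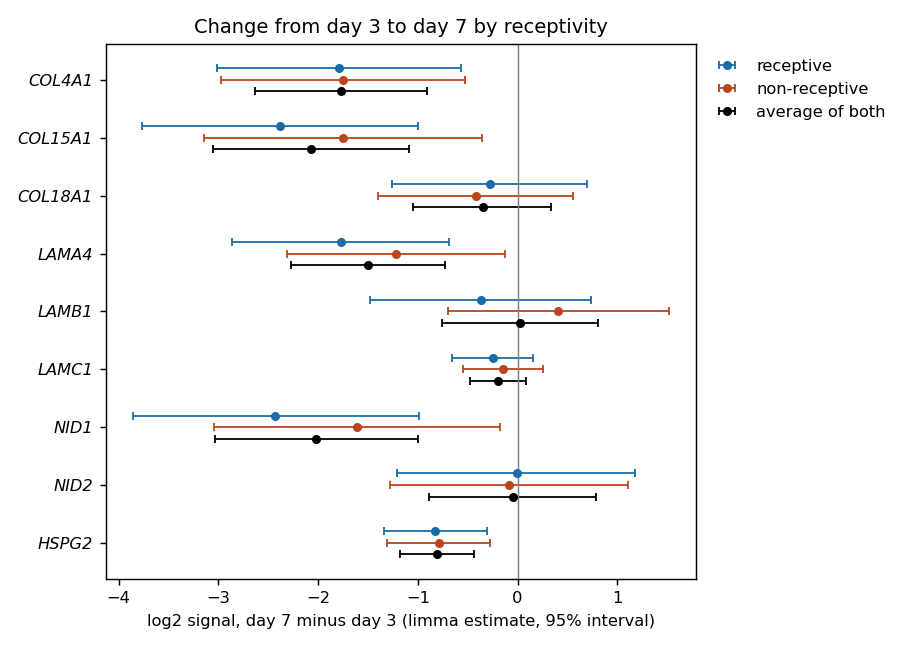
Change in log2 signal, day 7 minus day 3 (x axis, limma estimate with 95% interval), of each gene (y axis) for receptive pools, for non-receptive pools and as the average. For COL4A1 the estimates were -1.79, -1.75 and -1.77. The averaged intervals of COL18A1, LAMB1, LAMC1 and NID2 include 0.

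Within a single receptivity group, with 3 pools a day, limma called 0 of 9 genes, although 5 in each group had an unadjusted p under 0.05. Of all probe sets 1.96% were called in receptive and 2.48% in non-receptive endometrium (20.4% and 20.5% at an unadjusted p under 0.05). By the brightest probe sets, the same 5 genes had the 5 largest changes in both groups. In receptive endometrium the estimates were -1.79 (COL4A1), -2.38 (COL15A1), -1.77 (LAMA4), -2.43 (NID1) and -0.83 (HSPG2), with adjusted p between 0.0745 and 0.111. All 5 had no overlap between the days there, as had 16.5% of all probe sets in this direction. Those in non-receptive endometrium were -1.75 (COL4A1), -1.75 (COL15A1), -1.22 (LAMA4), -1.61 (NID1) and -0.79 (HSPG2), with adjusted p between 0.0991 and 0.197. There 2 of the genes, COL4A1 and HSPG2, had no overlap by their brightest probe set, beside 15.6% of all probe sets. The dimmer COL15A1 probe set did not overlap there either. A dim LAMC1 probe set also fell there without overlap, with 3.89 to 4.80 on day 7 and 5.20 to 5.37 on day 3. Its change was -0.84 (limma adjusted p = 0.0767), and in receptive endometrium -0.12 (limma adjusted p = 0.817). The other LAMC1 probe sets overlapped in non-receptive endometrium and disagreed in sign. With array weights the counts called were 3 in receptive and 1 in non-receptive endometrium, and without non-receptive day 3 pool 3 they were 2 (COL15A1 and LAMA4) and 1 (COL15A1).

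When the day changes of both groups were set against each other, limma called 0 of 9 genes, and 0 had an unadjusted p under 0.05 (0% of all probe sets called, 3.39% at an unadjusted p under 0.05). The differences, receptive minus non-receptive, lay between -0.82 ± 0.91 (SE) for NID1 and 0.14 ± 0.62 for COL18A1. The 95% intervals reached beyond 1 log2 unit in at least one direction, except for HSPG2 (-0.76 to 0.70) and LAMC1 (-0.68 to 0.46). For the other genes a difference of 1 log2 unit was not detectable with 3 pools per group. All these values are of the brightest probe sets. A dim LAMC1 probe set had a difference of 0.72 (limma unadjusted p = 0.0435, adjusted p = 0.999).

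Receptive and non-receptive endometrium of the same day were compared to ask whether the genes differ with later pregnancy success. On day 3 limma called 0 of 9 genes and 0 had an unadjusted p under 0.05 (0.0125% and 5.26% of all probe sets). The changes, receptive minus non-receptive, lay between -0.38 for COL18A1 and 0.21 for COL15A1 and NID1, with a median of -0.03. On day 7 the counts were likewise 0 and 0 (0% and 5.81% of all probe sets). There 8 of 9 genes had a negative difference by their brightest probe sets, with a median of -0.26 beside -0.02 over all probe sets. The widest was LAMB1 at 7.23 ± 0.45 in receptive and 7.87 ± 0.50 in non-receptive pools (SD, n = 3 each), a difference of -0.65 ± 0.50 (SE, limma adjusted p = 0.849). LAMA4 had 4.64 ± 0.56 in receptive and 5.22 ± 0.44 in non-receptive pools of day 7 (-0.58, limma adjusted p = 0.863). The dimmer probe sets of COL4A1 (0.11) and COL15A1 (0.17) had positive differences on day 7, and that of LAMA4 a negative one (-0.21). Those of LAMC1 disagreed in sign, between -0.16 and 0.41. The share of negative differences over all probe sets was not counted. Averaged over both days the counts were again 0 and 0 (0.00416% and 7.38% of all probe sets). By the brightest probe sets, receptive and non-receptive pools overlapped for each of the 9 genes on both days. A dim LAMC1 probe set did not overlap on day 3, with 4.86 to 5.10 in receptive and 5.20 to 5.37 in non-receptive pools. Its limma adjusted p was 0.945, and 6.24% of all probe sets had no overlap in this direction. The difference of the actin controls reached higher values in receptive pools, and its part in these comparisons was not tested. The spread of the members differed between groups of day 3, where COL4A1, COL15A1, LAMA4, LAMB1, NID1 and NID2 had SDs of 0.18 to 0.30 in receptive and of 0.91 to 1.28 in non-receptive pools. The SDs were 0.40 in receptive and 0.66 in non-receptive pools for COL18A1 and 0.01 and 0.18 for LAMC1, whereas HSPG2 had 0.31 in receptive and 0.26 in non-receptive pools. This difference in spread was not tested.

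In that group pools 2 and 3 took opposite ends. Non-receptive day 3 pool 2 was the highest of the 6 pools of its day for 9 of 9 genes, and non-receptive day 3 pool 3 the lowest for 7 of 9 (not for HSPG2 and COL18A1). The receptive day 7 pool 3 was the lowest of its day for 4 genes and the non-receptive day 7 pool 3 the highest for 4.

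Partners and relatives were then set side by side within the same pool, where differences in scale between arrays cancel. The 5 pairs were taken from known complexes and families after their day changes had been seen, so that the differences are a description, with no test. NID1 minus NID2 was between -3.70 and -0.90 log2 units on day 7 and between -0.61 and -0.05 on day 3, with no overlap between the days. Their day changes differed by -1.97 ± 0.50 (SE, n = 6 pools a day). LAMA4 minus LAMB1 was between -2.97 and -2.16 on day 7 and between -1.58 and -0.82 on day 3, again with no overlap, and the day changes differed by -1.52 ± 0.20, the smallest standard error of the pairs. The other pairs overlapped between the days. COL15A1 minus COL18A1 was between 1.73 and 3.45 on day 7 and between 3.01 and 5.15 on day 3 (difference of the day changes -1.71 ± 0.43), where the low signal of COL18A1 may understate its own change. LAMA4 minus LAMC1 was between -5.12 and -3.85 on day 7 and between -4.20 and -2.43 on day 3 (-1.30 ± 0.34). For LAMB1 and LAMC1, the chains shared by many laminins, the day changes differed by 0.22 ± 0.32, with a sign that turned without non-receptive day 3 pool 3 (-0.04).

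**Figure D3:**
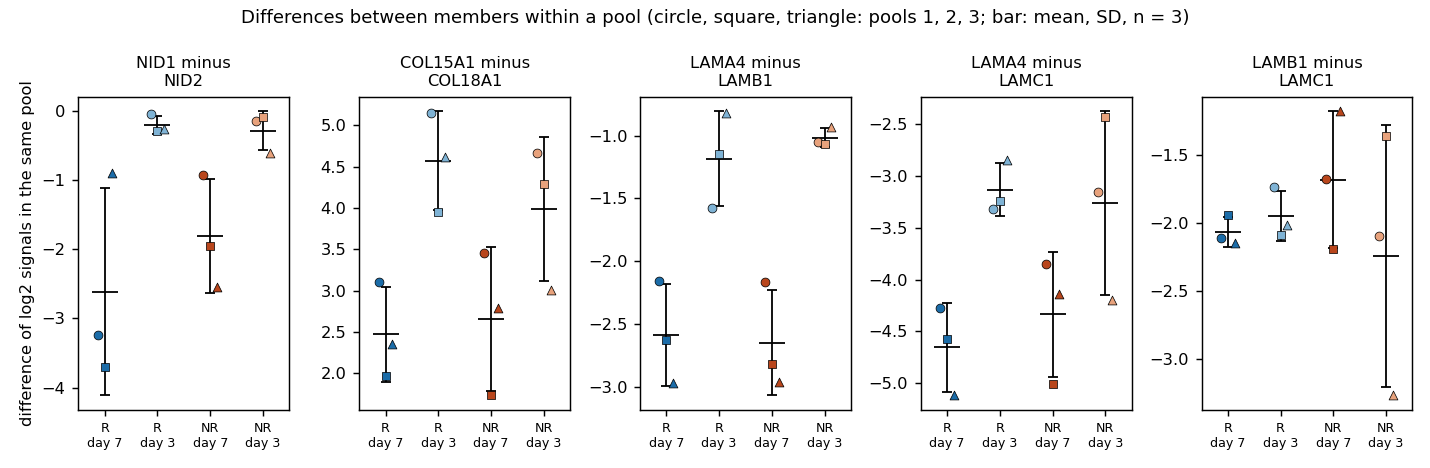
Difference of the log2 signals of 2 genes in the same pool (y axis, scaled per panel), with the 4 groups of receptivity and day on the x axis and bars for mean and SD. LAMA4 minus LAMB1 lay between -2.97 and -2.16 in all pools of day 7 and between -1.58 and -0.82 in all pools of day 3, while LAMB1 minus LAMC1 overlapped.

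Over the 12 pools, which share their groups and arrays, COL4A1 was closest to COL15A1. Among 9154 other named genes COL15A1 ranked first in likeness to COL4A1 (Pearson's r = 0.98), followed by DKK3, EGFLAM, COL6A1, PCOLCE, STRA6, LUM and APCDD1 (r from 0.96 to 0.98). EGFLAM encodes pikachurin, a basement membrane ligand of dystroglycan, COL6A1 a chain of type VI collagen, PCOLCE an enhancer of procollagen processing and LUM the stromal proteoglycan lumican. STRA6 encodes a receptor of retinol-binding protein, and DKK3 and APCDD1 a secreted and a membrane protein related to Wnt signalling. LAMA4 was at rank 13 (r = 0.95), HSPG2 at rank 39 (0.91) and NID1 at rank 157 (0.83). The 4 genes that were not called stood at ranks 1507 (COL18A1, 0.57), 1812 (LAMC1, 0.51), 1963 (NID2, 0.49) and 2377 (LAMB1, 0.41). These values are a description and carry no test.

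Once the group means were removed, COL15A1 (r = 0.97 of the deviations) and LAMA4 stayed closest to COL4A1 among the members. The order of the others changed. LAMB1 and NID2 then varied with COL4A1 (r = 0.81 and 0.83 of the deviations), nearly as closely as LAMA4 did (0.88), and LAMB1 with NID2 at 0.81. For HSPG2 and NID1, which were lower on day 7 as COL4A1 was, r with COL4A1 was 0.69 and 0.52. LAMC1 and COL18A1 correlated at 0.82 over the pools and at 0.80 in their deviations. The deviations of COL4A1, COL15A1, LAMA4, LAMB1, NID1 and NID2 were widest in non-receptive day 3, where pools 2 and 3 took opposite ends. How far the r rest on these pools was not tested.

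**Figure D4:**
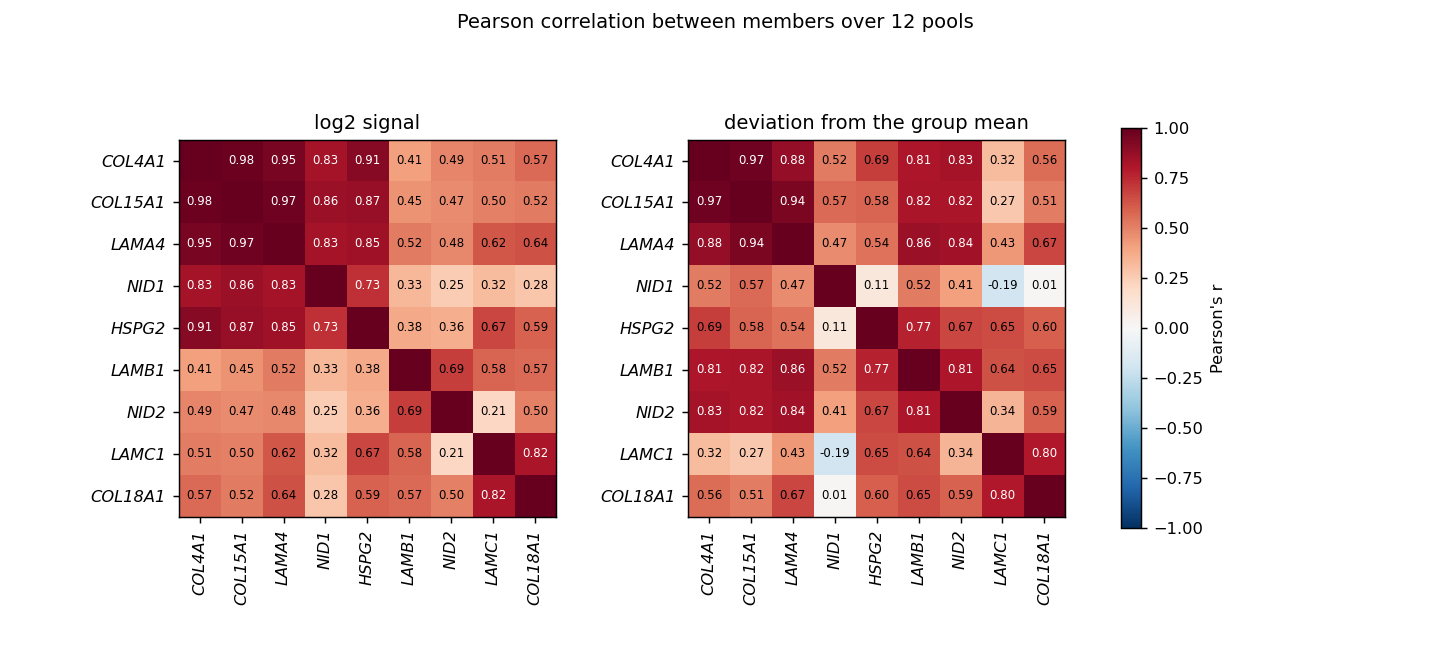
Pearson's r between the log2 signals of the 9 genes over 12 pools (left) and between their deviations from the mean of their group (right). COL4A1, COL15A1 and LAMA4 correlated at 0.95 to 0.98 on the left, and LAMB1 correlated with COL4A1 at 0.41 on the left and 0.81 on the right.

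Other components of the basement membrane were described from gene lists in the same averaged contrast of day 7 with day 3. Of 10 further proteins measured, 2 were called lower on day 7 and 1 higher, with a median change of -0.44, and among all named genes, the background for each list here, 10.3% were called lower and 6.76% higher. EGFLAM had 5.56 ± 0.47 on day 7 and 7.01 ± 0.64 on day 3 (SD, n = 6, limma adjusted p = 0.0183), and SMOC2, a SPARC-related calcium-binding protein, changed by -1.20 (adjusted p = 0.0345). LAD1, or ladinin, an anchoring protein of epithelial basement membranes, was higher on day 7 in every pool, with 8.01 ± 0.09 on day 7 and 7.63 ± 0.14 on day 3 (adjusted p = 0.0198). No overlap in this direction was seen for 2.55% of all probe sets. The collagen-binding SPARC had 7.39 ± 0.84 on day 7 and 9.34 ± 1.18 on day 3 and did not pass (adjusted p = 0.0502). COL4A3, COL4A4 and the hemidesmosomal COL17A1 had changes of 0.18, -0.36 and 0.24, and the laminin chains LAMB2 and LAMB3 of -0.43 (adjusted p = 0.0628) and 0.20. None of these 5 passed.

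Of 15 genes for the synthesis and folding of collagens, type IV among them, 3 fell and 0 rose (10.3% and 6.76% of named genes). Their median change was 0.01. The list was not specific to type IV collagen. The genes that fell were the lysyl hydroxylase PLOD2, with 6.61 ± 0.36 on day 7 and 7.43 ± 0.21 on day 3 (SD, n = 6, limma adjusted p = 0.0103), and the prolyl hydroxylase subunits P4HA3 (-1.64, adjusted p = 0.0318) and P4HA2 (-0.60, adjusted p = 0.0456). TMEM38B, a channel of the endoplasmic reticulum needed for collagen modification, had a change of 0.45 (adjusted p = 0.128). Of 13 receptors 2 fell, the laminin-binding integrin chain ITGA7 (-0.75, adjusted p = 0.0478) and the cell surface proteoglycan GPC1 (-0.92, adjusted p = 0.0499), both close to the threshold. Of named genes 10.3% were called lower and 17.1% in either direction. The median change of the receptors was -0.03. ITGB1, the common partner chain, had 12.03 ± 0.16 on day 7 and 12.32 ± 0.06 on day 3 without overlap but did not pass (adjusted p = 0.0506). In this direction 5.16% of all probe sets had no overlap. ITGB4, which anchors epithelium to laminin, had a change of 0.67 (adjusted p = 0.0984).

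Of 15 degrading enzymes and their inhibitors 1 rose and 0 fell, a share near the 6.76% of named genes called higher, with a median of 0.32. MMP9, a gelatinase that cleaves type IV collagen, averaged 5.86 ± 1.32 on day 7, while on day 3 it was listed at 0, the floor of the scale, in 3 of 6 pools (limma adjusted p = 0.00426). The plasminogen activator PLAU (1.24, adjusted p = 0.0592), the inhibitor TIMP2 (0.86, adjusted p = 0.0596) and the gelatinase MMP2 (-1.45, adjusted p = 0.0714) did not pass.

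Markers of vessels, stroma and epithelium were read in the same contrast, as each of these tissues contains basement membrane. Of all named genes 10.3% were called lower and 6.76% higher. Of 13 endothelial markers 4 fell and 0 rose (median -0.17), namely FLT1 (-1.62), EMCN (-1.69), TEK (-1.41) and CDH5 (-0.79), with limma adjusted p between 0.0139 and 0.0347. The 9 others did not pass and lay on both sides of 0, between -0.57 for ROBO4 and 0.42 for CLDN5. Of 10 pericyte and smooth muscle markers 2 fell (median -0.55), MCAM (-0.62, adjusted p = 0.00611) and MYLK (-1.64, adjusted p = 0.0232). The 8 others did not pass and lay between -2.27 for RGS5 and 0.13 for DES. Of 10 stromal fibroblast markers 2 fell (median -0.98), PTN (-2.41, adjusted p = 0.0169) and THY1 (-0.45, adjusted p = 0.0279). The 8 others did not pass and lay between -2.25 for LUM and 0.04 for PDGFRA, with VIM, DPT and TCF21 at -0.18, -0.17 and -0.11. Of 8 fibrillar collagens 2 fell (median -0.87), COL3A1 (-1.73, adjusted p = 0.0297) and COL5A3 (adjusted p = 0.0275), which was listed at 0 in 2 pools of day 7. Epithelial markers had a median of -0.03 and 0 of 11 passed (limma, smallest adjusted p = 0.0775 for KRT7). All 4 measured markers of stratified squamous epithelium rose (median 2.29), with a mean signal of the list of 6.74 to 8.69 on day 7 and 5.47 to 6.18 on day 3, and of 12 leucocyte markers 3 rose and 2 fell (median -0.27).

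The mean signal of the endothelial list was 4.94 to 5.48 on day 7 and 5.28 to 5.93 on day 3, and that of the stromal list 5.91 to 7.46 on day 7 and 6.72 to 8.69 on day 3. The pericyte and smooth muscle list had 5.06 to 5.92 on day 7 and 5.76 to 6.53 on day 3, and no marker of these 3 lists was at 0 in any pool. Across the 12 pools COL4A1 correlated with the mean signal of the endothelial (r = 0.97), stromal (0.95) and pericyte lists (0.94) and at -0.27 with the epithelial list. These are descriptions over pools that share their arrays. For LAMB1 the values were 0.42 (endothelial), 0.61 (stromal) and 0.44 (pericyte) over the pools, and 0.71, 0.85 and 0.73 in the deviations from the group means, against 0.95, 0.97 and 0.86 for COL4A1. Non-receptive day 3 pool 3, in which the members were low, also had the lowest stromal (6.72) and endothelial (5.28) level of its day, with an epithelial level (10.84) among those of the other pools. The part of cell composition in the changes of the basement membrane genes was not tested. With that pool left out, the 5 calls stood at larger changes, with -2.05 for COL4A1, -2.42 for COL15A1, -1.78 for LAMA4, -2.34 for NID1 and -0.87 for HSPG2. Leaving out a low pool of day 3 enlarges a fall by itself, so the larger changes lend the calls no support.

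**Figure D5:**
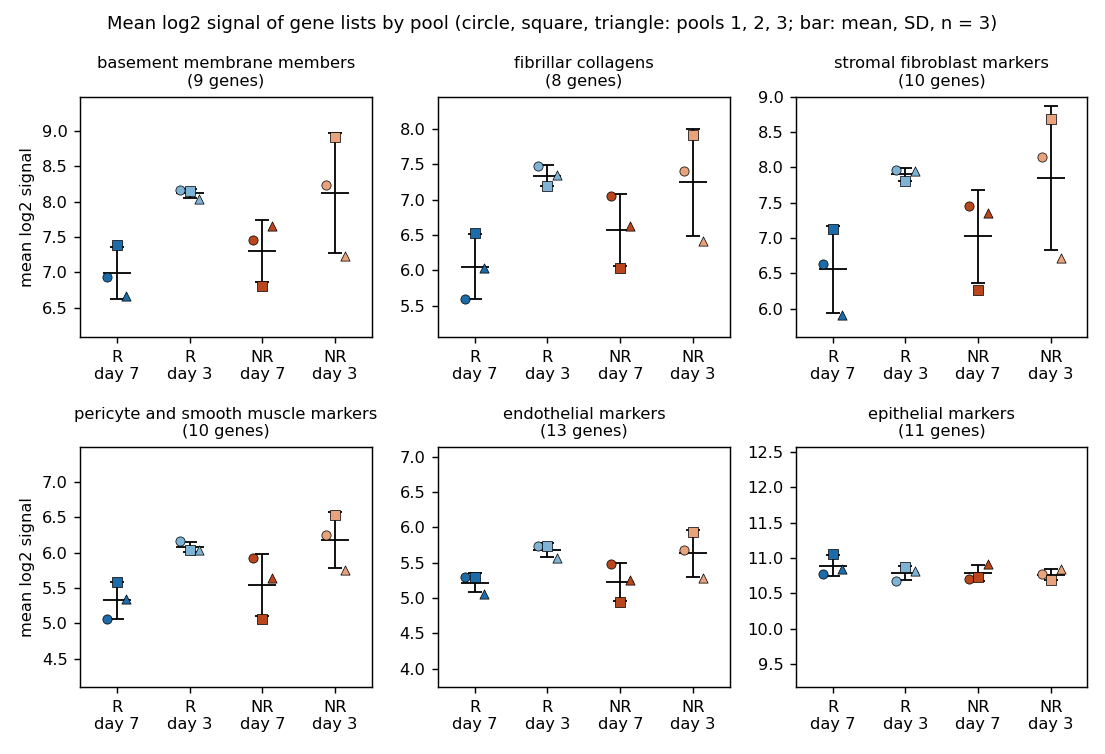
Mean log2 signal (y axis, each panel spanning the same range) over the genes of 6 lists, with 1 point per pool. The x axis separates the groups of receptivity and day, and bars mark mean and SD. The stromal list lay between 5.91 and 7.46 on day 7 and between 6.72 and 8.69 on day 3, with pool 3 of non-receptive day 3 lowest of its day, while the epithelial list stayed between 10.68 and 11.06.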

How the data were processed

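The authors deposited 1 log2 signal per probe set and array for 24128 probe sets of the bovine Affymetrix array. According to the submitters' processing notes, GCOS 1.1.1, the Affymetrix Expression Console and PLIER were used, in an order not given. How arrays were scaled to each other was not given either. Signals were used as deposited, without a further filter or scaling, after 112 control probe sets had been left out. Of the others 13292 carried 1 gene symbol in the platform annotation, 86 several and 10638 none, and only those with 1 symbol were named. Group means of the 12 pools were fitted in limma 3.58.1 (R 4.3.3) with moderated variances, and p-values were adjusted by the Benjamini-Hochberg method over all 24016 probe sets. A gene was represented by the probe set of highest mean over all pools. Members, gene lists and tests were chosen with earlier results of these data known. The genes named are the members, those most like COL4A1 and, per list, genes among the 4 of smallest p, besides tissue markers in the opening. Not all of these 4 are named where they did not pass. Some endothelial, pericyte, stromal and leucocyte markers outside the 4, such as ROBO4, CLDN5, DES, PDGFRA, PTPRC and CD14, were added with their values known. Pairs of members were described without a test. The number of arrays limits the precision. Alternatives were quantile normalisation, median centring, a filter on dim probe sets, a floor, other variance models, array weights, the mean of a gene's probe sets and leaving out each pool.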

Additional observations from a re-analysis of the deposited data

How the results depend on the processing

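The 5 calls in the averaged contrast of day 7 with day 3 were the same number under each of 9 changes of the processing, and 4 to 5 with each pool left out in turn. COL4A1, COL15A1, HSPG2 and NID1 passed in 21 of 21 alternatives (highest limma adjusted p = 0.0463, 0.043, 0.0338 and 0.0499) and LAMA4 in 19, which was lost when non-receptive day 3 pool 1 (adjusted p = 0.0526) or receptive day 3 pool 3 (0.0501) was left out. The change of LAMA4 was -0.89 with the mean of its probe sets. In receptive endometrium the count of 0 became 2 with the dimmest 0.25 of probe sets left out, 1 with a trended robust variance and 3 with array weights, and 0 to 2 with a pool left out (2 without non-receptive day 3 pool 3). In non-receptive endometrium it became 1 with array weights, and 0 to 1 with a pool left out (1 without non-receptive day 3 pool 3). In the comparisons of receptive with non-receptive endometrium and in the difference between day changes, the count was 0 under each alternative (0 to 0 with a pool left out). With the replicate block, that is the pool number as a term of the fit, 5 genes were called in the averaged contrast (COL4A1 adjusted p = 0.0231, LAMA4 adjusted p = 0.0347), and the block changed no other call. Same-numbered pools deviated together at r between -0.18 and 0.14, above 0.1 in 3 of 18 pairs, so that numbers were not taken as pairs. Between day 7 and day 3 of receptive endometrium the r were 0.14, 0.05 and 0.12 for pools 1, 2 and 3, each pool correlating best with its own number, a hint from the data and not from the labels. LAMB1, at 0.02, took the other sign with array weights (-0.01) and without 4 of the pools, and lay between -0.28 (without non-receptive day 3 pool 3) and 0.28 with a pool left out. NID2, at -0.05, was 0.00 after quantile normalisation, 0.01 after median centring and between -0.29 and 0.16 with a pool left out (above 0 without 4 of the pools). Under 15 alternatives chosen after the data were seen, the day changes of LAMA4 and LAMB1 differed by -1.64 to -0.91 (-0.91 with the mean of probe sets), and LAMB1 minus LAMC1 was -0.04 to 0.44 with a pool left out (-0.04 without non-receptive day 3 pool 3). The cause of these changes was not tested. The median of all probe sets moved from -0.05 as deposited to 0.0142 by median centring. Signals near the floor, as in the dim probe set of LAMA4, may understate a change. COL18A1 was dim but not near the floor, with signals from 4.06 to 6.09, and whether its change was understated was not tested.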

Other observations

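Leucocyte markers moved in both directions between the days. The calprotectin subunits S100A8 and S100A9, listed here as leucocyte markers, were higher on day 7. S100A8 had 10.59 ± 1.11 on day 7 and 7.26 ± 0.92 on day 3 (SD, n = 6 each, limma adjusted p = 0.00591). S100A9 had 8.32 ± 0.80 on day 7 and 6.80 ± 0.36 on day 3 (limma adjusted p = 0.0141). Which cells these signals came from was not tested. The macrophage marker CD68 was higher on day 7 as well (means of 8.78 on day 7 and 6.61 on day 3, a change of 2.17, limma adjusted p = 0.0103), whereas MS4A1, which encodes the B cell antigen CD20, was lower (4.50 ± 0.23 on day 7 and 5.10 ± 0.27 on day 3, limma adjusted p = 0.0116). PTPRC, the common leucocyte antigen CD45, was lower too (8.27 ± 0.26 on day 7 and 8.99 ± 0.24 on day 3, limma adjusted p = 0.0156), and the myeloid genes CSF1R (-0.53, adjusted p = 0.233), ITGAM (-0.06, at 0 in 1 pool of day 7) and CD14 (0.93, adjusted p = 0.147) did not pass. The basal keratin KRT5 had 9.14 ± 1.60 on day 7 and 5.72 ± 0.72 on day 3 (limma adjusted p = 0.00582), and KRT17 had 7.67 ± 0.37 on day 7 and 5.30 ± 0.58 on day 3 (limma adjusted p = 0.00224).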
